A study of Mus musculus with 8 samples.

Results

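The antiviral interferon-stimulated genes analysed here are 46 genes that cells switch on to block the entry, replication or release of viruses. They were listed by gene symbol. All 46 were among the 25239 symbols counted, and all 46 were among the 12977 genes with enough reads to be tested.

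RNA was sequenced from whole livers of 8 adult male C57Bl6/J mice with floxed Smo alleles (Smo tm2Amc/J). For 6 weeks all received the CDA-HFD, a fat-rich and choline-deficient diet with restricted amino acids that is used to bring on steatohepatitis, and all were injected through the tail vein with an adeno-associated virus of serotype 8 (AAV8) 1 week before sacrifice. In the 4 control mice (AAV8-TBG-Luciferase) the virus carried luciferase, and in the 4 Smo-KO mice (AAV8-TBG-Cre) it carried Cre recombinase, so the floxed alleles, the diet and the viral capsid were common to both groups. The TBG promoter is active in hepatocytes, whereas whole liver also holds immune, endothelial and stellate cells. Smo, which encodes the Hedgehog signal transducer Smoothened, measured 8.17, 8.49, 8.74 and 8.21 CPM (reads per 1000000 reads counted, after scaling of the libraries) across control livers 1 to 4, against 5.67, 3.93, 4.27 and 4.37 CPM across Smo-KO livers 1 to 4. These groups did not overlap, and the log2 fold change of Smo was -0.88 (standard error [SE] 0.16; edgeR, adjusted p = 0.0957). Each liver gave between 8203299 and 9999732 reads on genes, of which between 42570 and 68723 fell on the 46 antiviral genes. The fewest reads behind any value of the 46 genes were the 33 of Ifit3 in control mouse 1, and 3 reads corresponded to between 0.297 and 0.366 CPM.

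Type I interferons bind a receptor that activates the kinases Jak1 and Tyk2. These switch on ISGF3, a transcription factor complex that contains Stat2 and Irf9 and binds the interferon-stimulated response element (ISRE) in the promoters of antiviral genes. The products act at several stages of infection: Ifit proteins bind foreign RNA, Oas enzymes sense double-stranded RNA and activate RNase L, Mx proteins trap viral nucleocapsids, and Ifih1, Ddx58 and Dhx58 sense viral RNA in the cytoplasm. In liver, hepatocytes as well as Kupffer cells, the resident macrophages, can mount this response.

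Levels of different genes are comparable only per length, as CPM per kilobase of exon. On this scale Ifitm3 was the most abundant of the 46 genes, at 1098 ± 24.8 in the control group and 1074 ± 69.0 in the Smo-KO group (SD, n = 4 each). Bst2 (tetherin, which holds budding virus at the cell surface) followed at 771 ± 18.2 and 753 ± 32.5, then Lgals9 at 338 ± 33.1 and 255 ± 43.9, Ifi27 at 286 ± 22.3 and 289 ± 29.5 and Isg15 at 171 ± 79.4 and 106 ± 23.4. The control values of Lgals9 and Ifi27 overlapped, as did those of Isg15 and the next gene, Lgals3bp (126 ± 18.9), so the order within each of these pairs is not firm. The Ifit, Mx and most Oas genes were far lower, from 29.2 ± 21.6 for Ifit1 and 57.1 ± 14.1 for Oas1a down to 3.23 ± 1.72 for Oas3, the lowest of the 46 in control livers.

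**Figure D1:**
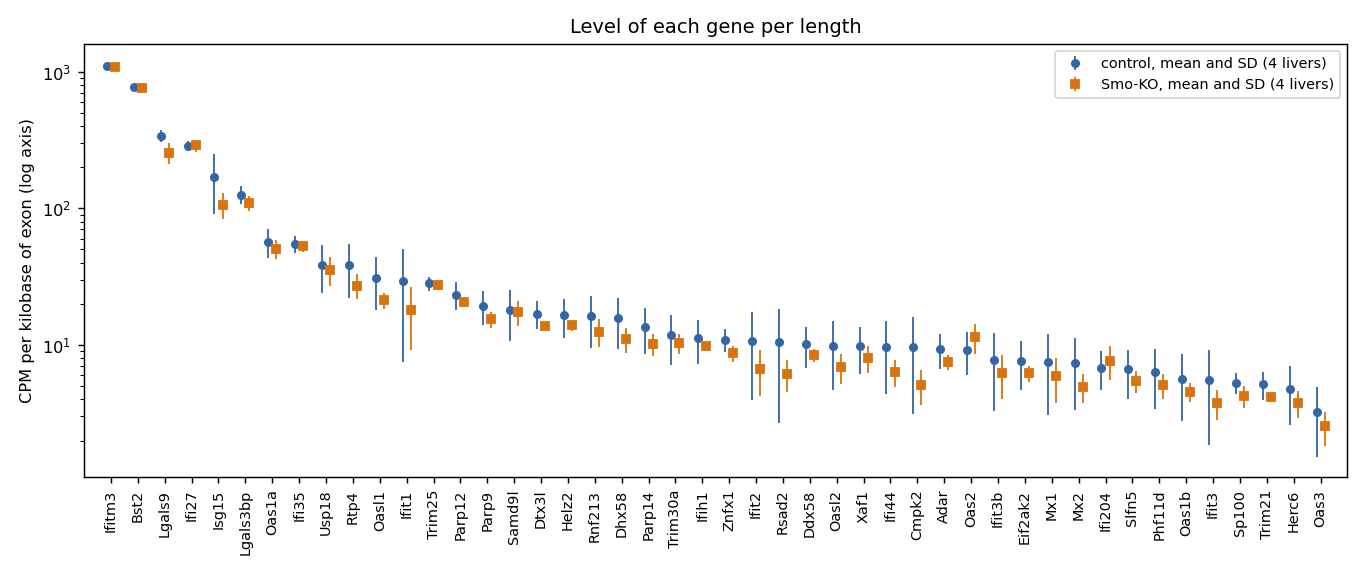
Level of each of the 46 genes in CPM per kilobase of exon (log axis); circles are control and squares Smo-KO means over 4 livers each, with bars of 1 SD. Ifitm3, Bst2, Lgals9, Ifi27, Isg15 and Lgals3bp stand above the rest, and the bars of Ifit1, Ifit2, Rsad2 and Cmpk2 are long in control livers.

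To determine whether the antiviral genes differed between Smo-KO and control livers, all genes were compared with edgeR's quasi-likelihood test. The log2 fold change (Smo-KO minus control) was below 0 for 43 of the 46 genes, and its median over the 46 was -0.32, against -0.001 over all 12977 genes. The exceptions were Oas2 (0.30, SE 0.23), Ifi204 (0.16, SE 0.23) and Ifi27 (0.011, SE 0.10). Single genes rarely stood out from the spread between mice. At an unadjusted p under 0.05, 5 of the 46 were lower (Lgals9, Isg15, Znfx1, Cmpk2 and Oasl1) and 0 were higher, where 7.15% of all genes tested were lower and 6.7% were higher at that threshold. The lower share, 5 of 46, is near that background.

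No antiviral gene had an adjusted p under 0.05, the lowest being 0.212 (Lgals9), and 0% of all genes did in this test. DESeq2's Wald test gave 163 such genes, of which 0 were among the 46. For 0 of the 46 did the groups separate: in no case did all 4 Smo-KO livers lie below, or all 4 above, the 4 control livers, against 4.34% of all genes below and 3.03% above. In 23 of the 46 genes all 4 Smo-KO values lay inside the range of the control values, a larger share than the 18.1% of all genes.

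The count of 5 depended on which mice were included. It was 25 without control mouse 1, 20 without control mouse 4 and 16 without Smo-KO mouse 3, and it was 1 without control mouse 2, control mouse 3, Smo-KO mouse 2 or Smo-KO mouse 4. The share of all genes lower at an unadjusted p under 0.05 was not counted with a mouse omitted. These counts therefore have no background beside them. Of the 5 genes, Lgals9 kept an unadjusted p under 0.05 whichever mouse was omitted. Isg15, Znfx1, Cmpk2 and Oasl1 each lost it without any 1 of control mouse 2, control mouse 3, Smo-KO mouse 2 or Smo-KO mouse 4, and Cmpk2 and Oasl1 also without Smo-KO mouse 1. With DESeq2's Wald test, Isg15, Cmpk2 and Oasl1 were not below that threshold. The median log2 fold change of -0.32 was -0.11 without control mouse 2.

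**Figure D2:**
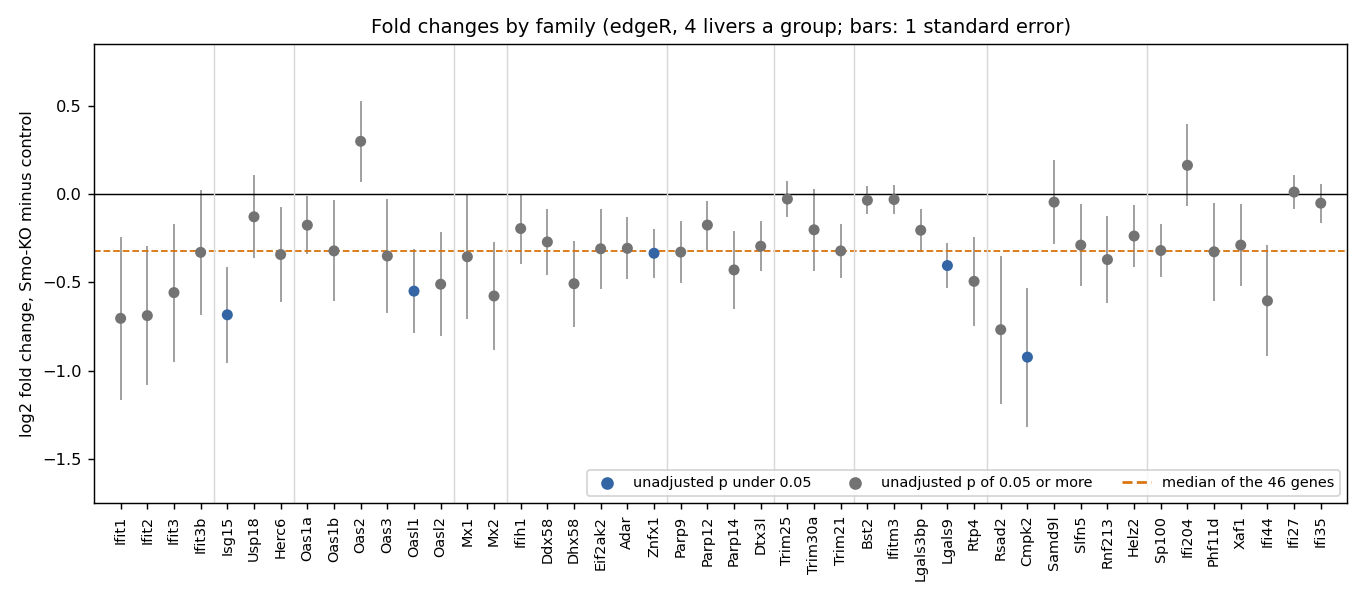
Log2 fold change (Smo-KO minus control, 4 livers each) of the 46 genes by family, with bars of 1 SE; blue points are the 5 genes at an unadjusted p under 0.05 and the dashed line is the median of the 46, -0.32. Nearly all points lie below 0, with Oas2 and Ifi204 above, and many bars reach 0 or come close to it.

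Differences between mice of the same group were large, and the antiviral genes shared them. Control mouse 2 had the highest of the 8 values in 40 of the 46 genes, whereas it did so in 12.8% of all genes. Control mice 2 and 3 were both above control mice 1 and 4 in 43 of the 46, an order found in 22.4% of all genes and noticed in these values before it was counted. Among the Smo-KO livers, mouse 3 was the highest in 39 of the 46, against 25.9% of all genes. The lowest of the 8 values was in control mouse 1 in 20 genes and in Smo-KO mouse 2 in 16.

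Taken over the 46 genes, the median log2 difference from the mean of the control livers was -0.53, 0.56, 0.34 and -0.41 in control mice 1 to 4. It was -0.23, -0.44, 0.04 and -0.33 in Smo-KO mice 1 to 4. By this median all 4 Smo-KO livers lay between the lowest and the highest control liver. Summed over the 46 genes, the level was 4976, 7206, 6481 and 4831 CPM across control livers 1 to 4, against 5177, 4643, 5550 and 4844 CPM across Smo-KO livers 1 to 4, so that by the sum Smo-KO mouse 2 lay below every control liver. The means were 5873 ± 1160 and 5054 ± 398 CPM (SD, n = 4 each), and the SD within the control group exceeded the difference between the means. Of the sum in Smo-KO mouse 2, the 5 membrane and secreted genes made up 2182 CPM, against 2405 to 2736 CPM in control livers.

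**Figure D3:**
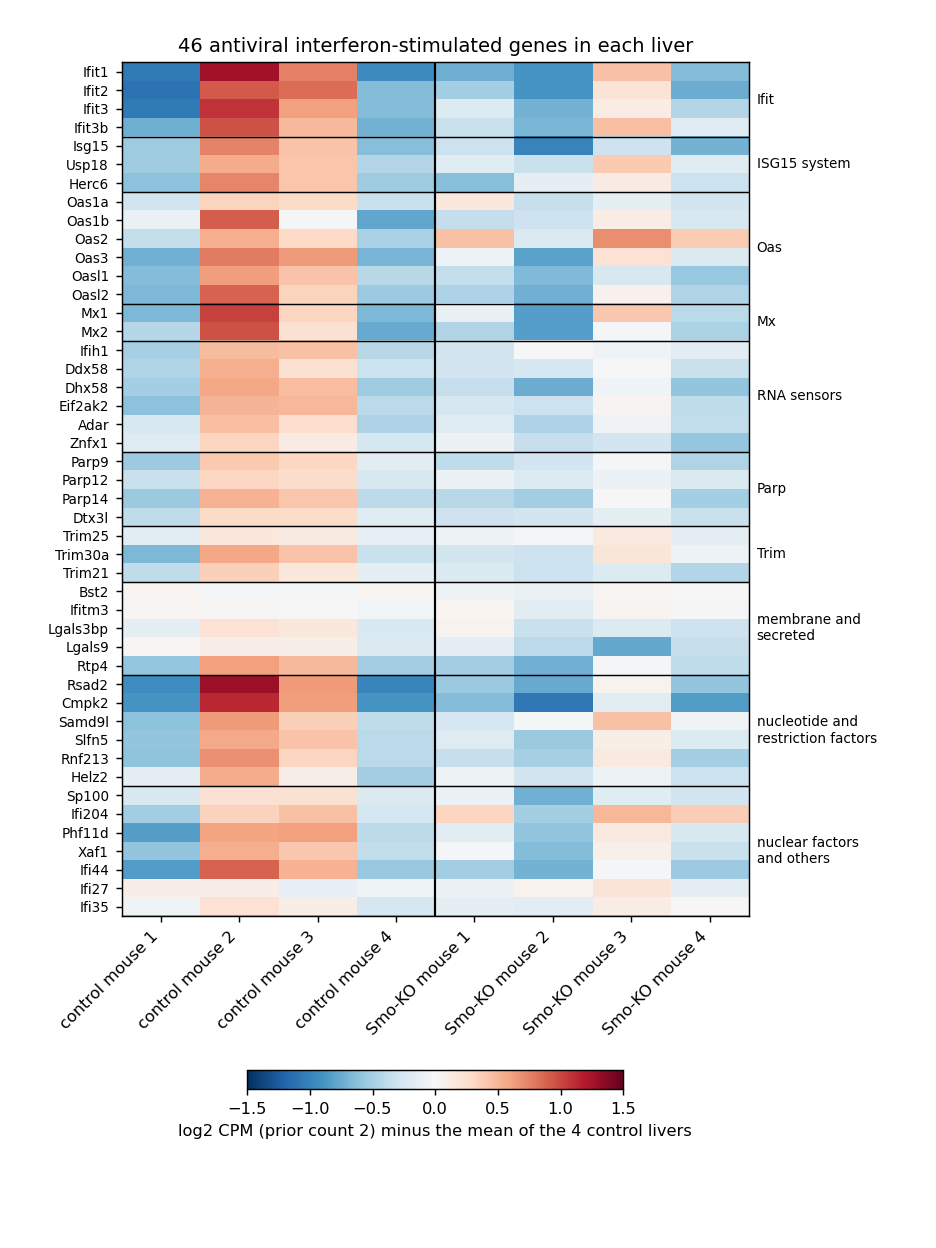
Log2 CPM of the 46 genes (rows, by family) in each of the 8 livers (columns), as the difference from the mean of the 4 control livers; red is above and blue below it. Columns of control mice 2 and 3 are red over most rows, those of control mice 1 and 4 are blue, and Smo-KO mouse 3 is the reddest of the Smo-KO columns, while Bst2, Ifitm3 and Ifi27 are pale across all columns.

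The spread was wider among control than among Smo-KO livers. The SD of log2 CPM over 4 control livers had a median of 0.574 over the 46 genes, against 0.172 over all genes tested, and over 4 Smo-KO livers 0.272 against 0.173. In 41 of the 46 genes (89.1%) the control SD was the larger, compared with 49.8% of all genes. In 33 of the 46, the control SD was above the 90th percentile of all genes, 0.392. Since the 46 genes were measured in the same 8 livers, these counts describe these mice and were not tested.

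The spread over the 8 livers was widest for Ifit1, Rsad2, Cmpk2, Ifit3 and Ifit2. The highest of the 8 livers had 5.03 times the CPM of the lowest for Ifit1, 4.90 times for Rsad2 and 4.66 times for Cmpk2. It was narrowest for the abundant membrane proteins: 1.10 times for Bst2 and 1.15 times for Ifitm3, with Trim25 and Ifi27 at 1.25 times each. Abundance and spread did not go together throughout, since Isg15, the fifth most abundant gene per length, ranged over 3.36 times.

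**Figure D4:**
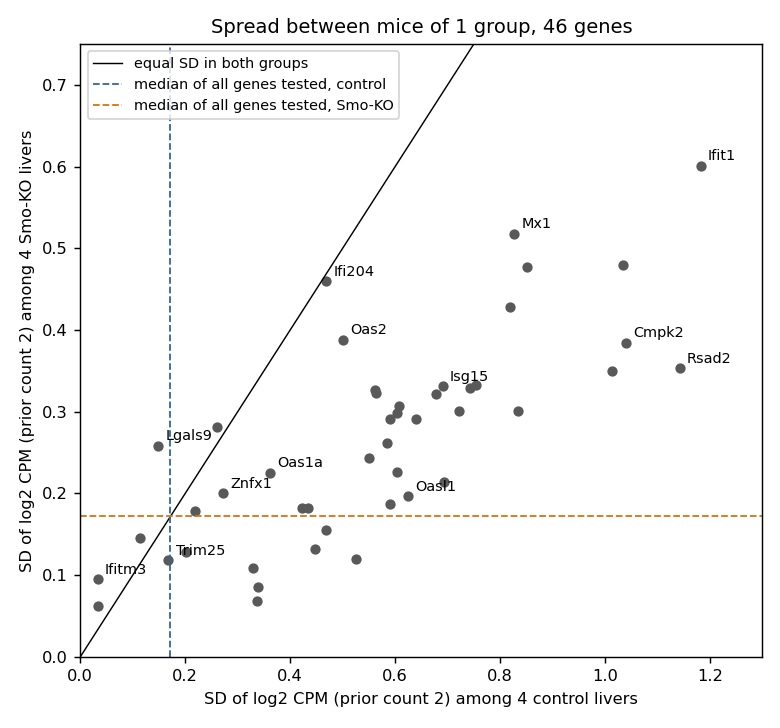
SD of log2 CPM among 4 control livers (horizontal axis) and among 4 Smo-KO livers (vertical axis) for the 46 genes; the black line marks equal SD and the dashed lines the medians of all genes tested (0.172 and 0.173). Most points lie below the line of equal SD, with Ifit1, Rsad2 and Cmpk2 farthest to the right and Lgals9 above the line.

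Because ISGF3 acts through the ISRE, the promoters of the 46 genes were searched for its core letters: GAAA, any 2 bases, GAAA, on both strands, with overlapping matches counted. RefSeq promoters (GRCm38.p6, 250 bases before to 50 after each start) were found for 35 of the 46 genes. The letters were present for 16 of the 35 (45.7%), compared with 3.99% of all 27025 genes that have a promoter in that collection. The core of the GAS element, through which interferon gamma acts (TTC, any 3 bases, GAA), was present for 7 of the 35 (20.0%) and for 9.55% of all genes. A match is a description of the sequence and not a site of binding, and the absence of one says only that these letters are not in this window.

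The promoters below are shown since they belong to genes given with the value of every mouse: Isg15, Ifit1 and Oas1a, which varied with the other antiviral genes, and Ifitm3, which was almost level, and Lgals9, which was lowest in Smo-KO mouse 3. Capitals mark the ISRE letters, written as TTTC, 2 bases, TTTC where they lie on the other strand. Each is given 5′ to 3′ on the strand of the gene (GRCm38.p6), from 30 bases before the first match to 20 or 30 bases after the start, at chr4:156200799-156200926 (minus strand) for Isg15, chr19:34640755-34640908 (plus) for Ifit1, chr5:120907506-120907575 (minus) for Oas1a, chr7:141010715-141010772 (minus) for Ifitm3 and chr11:78984895-78985009 (minus) for Lgals9.
Isg15: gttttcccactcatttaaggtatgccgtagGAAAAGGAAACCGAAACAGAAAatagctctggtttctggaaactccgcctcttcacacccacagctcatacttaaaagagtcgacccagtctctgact
Ifit1: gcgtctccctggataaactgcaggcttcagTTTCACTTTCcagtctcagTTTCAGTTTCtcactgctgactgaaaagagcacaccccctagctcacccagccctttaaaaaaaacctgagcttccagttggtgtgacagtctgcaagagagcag
Oas1a: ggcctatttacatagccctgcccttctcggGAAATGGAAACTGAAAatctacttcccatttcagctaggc
Ifitm3: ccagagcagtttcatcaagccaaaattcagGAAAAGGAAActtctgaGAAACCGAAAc
Lgals9: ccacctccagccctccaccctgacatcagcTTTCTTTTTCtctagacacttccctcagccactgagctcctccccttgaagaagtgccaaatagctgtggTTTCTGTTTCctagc

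Isg15 held 3 overlapping matches in 1 run of repeats, and Oas1a held 2. Ifit1 held 2 separate matches on the other strand. In Ifitm3 both matches lay after the start, and in Lgals9 1 lay before it and 1 after. The letters did not sort the genes by their spread: the control SD of log2 CPM had a median of 0.587 over the 16 genes with a match (from 0.0328 for Ifitm3 to 1.18 for Ifit1) and 0.561 over the 19 genes with a promoter and no match.

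Several families are also neighbours in the genome. Of the 46 genes, 21 lay in 8 neighbourhoods in which the gap to the next of the 46 was at most 1000000 bases (RefSeq annotation of GRCm38). The 4 Ifit genes lay at chr19:34550550-34650009. Oas2, Oas3, Oas1b and Oas1a lay at chr5:120730333-120907544, Mx1 and Mx2 at chr16:97447035-97560901, Parp14, Dtx3l and Parp9 at chr16:35831892-35972621, and Rsad2 and Cmpk2 at chr12:26442743-26479837.

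The Ifit proteins bind viral RNA, Ifit1 through its aberrant cap, and block its translation. Ifit1 measured 29.1, 147, 103 and 31.4 CPM across control livers 1 to 4, against 36.6, 33.0, 82.4 and 38.9 CPM across Smo-KO livers 1 to 4. Control mice 2 and 3 and Smo-KO mouse 3 were high, the other 5 livers were close together, and the groups overlapped. The log2 fold change of Ifit1 was -0.70 (SE 0.46; edgeR, adjusted p = 0.522), and it was -0.19 without control mouse 2. Those of Ifit2, Ifit3 and Ifit3b were -0.69, -0.56 and -0.33, and 0 of the 4 genes reached an unadjusted p under 0.05. Over the 15 settings of the analysis described below, the values of Ifit2, Ifit3 and Ifit3b reached -0.38, -0.12 and 0.058 at the highest. Ifit3 and Ifit3b are near-identical copies: 51.2% of the 50-base windows of the Ifit3 transcript also occurred in another gene, mostly Ifit3b, so their separate values are uncertain.

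Isg15 encodes a ubiquitin-like protein that is attached to other proteins by Herc6 and removed by Usp18, which also restrains the interferon receptor. Isg15 measured 82.1, 198, 160 and 75.9 CPM across control livers 1 to 4, against 94.6, 59.1, 95.2 and 72.6 CPM across Smo-KO livers 1 to 4. Control mice 2 and 3 were above all other livers, and the remaining 6 were interleaved. Its log2 fold change of -0.68 (SE 0.27) had an unadjusted p of 0.0265 (adjusted p = 0.294 by edgeR), and without control mouse 2 it was -0.40. Those of Usp18 and Herc6 were -0.13 and -0.34, with unadjusted p of 0.593 and 0.227.

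The Oas genes encode sensors of double-stranded RNA; Oas1a makes the second messenger that activates RNase L, and Oasl1 and Oasl2 are Oas-like proteins. Oas1a measured 85.6, 132, 129 and 83.6 CPM across control livers 1 to 4, against 117, 82.3, 95.4 and 86.0 CPM across Smo-KO livers 1 to 4, a log2 fold change of -0.18 (SE 0.16). Without control mouse 2 that fold change was -0.058. All Smo-KO livers but mouse 2, the lowest of the 8, lay inside the control range. Oas1a shared 57.6% of its 50-base windows with other genes, mostly Oas1g, so its level is uncertain. Oasl1 measured 48.3, 117, 102 and 56.7 CPM across control livers 1 to 4, against 59.1, 47.6, 64.1 and 50.9 CPM across Smo-KO livers 1 to 4. Again control mice 2 and 3 were above the other 6 livers. Its log2 fold change was -0.55 (SE 0.24), with an unadjusted p of 0.0372 and an adjusted p of 0.329, and it was -0.32 without control mouse 2. Of the other Oas genes, Oas1b, Oas3 and Oasl2 had log2 fold changes of -0.32, -0.35 and -0.51. Oas2 stood on the other side of 0, at 0.30, and its highest value was in Smo-KO mouse 3 (64.0 CPM, against 57.6 CPM in control mouse 2).

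Mx1 and Mx2 encode dynamin-like GTPases; the Mx1 allele of most inbred laboratory strains, C57BL/6 included, makes no functional protein. Mx1 measured 15.7, 51.2, 31.5 and 15.7 CPM across control livers 1 to 4, against 23.3, 14.1, 33.3 and 18.9 CPM across Smo-KO livers 1 to 4. Its log2 fold change was -0.36 (SE 0.35; edgeR, adjusted p = 0.694), and it was 0.089 without control mouse 2. That of Mx2 was -0.58 (SE 0.31; adjusted p = 0.421), and -0.16 without that mouse. Both genes were highest in control mouse 2, and their groups overlapped.

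Among the RNA sensors, Ifih1 (MDA5) and Ddx58 (RIG-I) signal through Mavs, Dhx58 (LGP2) modulates them, Eif2ak2 (PKR) halts translation and Adar edits double-stranded RNA. Dhx58, the most abundant of them per length, measured 33.8, 71.8, 66.5 and 33.1 CPM across control livers 1 to 4, against 37.9, 28.7, 46.1 and 31.9 CPM across Smo-KO livers 1 to 4. Its log2 fold change was -0.51 (SE 0.24; edgeR, adjusted p = 0.379), and -0.30 without control mouse 2. Znfx1, an RNA helicase of the mitochondrial surface, measured 77.7, 111, 96.7 and 74.0 CPM across control livers 1 to 4, against 83.3, 69.4, 72.4 and 59.4 CPM across Smo-KO livers 1 to 4. In Znfx1, unlike Dhx58, Smo-KO mouse 3 was not the highest Smo-KO liver. Its log2 fold change was -0.34 (SE 0.14), with an unadjusted p of 0.0308 and an adjusted p of 0.308, and it was -0.22 without control mouse 2. Ifih1, Ddx58, Eif2ak2 and Adar had log2 fold changes between -0.31 and -0.20, none with an unadjusted p under 0.05.

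Parp9, Parp12 and Parp14 encode ADP-ribosyltransferases, and Dtx3l a ubiquitin ligase that acts with Parp9. Parp12, the most abundant per length, measured 72.5, 114, 110 and 77.4 CPM across control livers 1 to 4, against 86.2, 79.6, 86.0 and 79.0 CPM across Smo-KO livers 1 to 4. All 4 Smo-KO livers lay between the lower and the upper control livers. The log2 fold change of Parp12 was -0.18 (SE 0.14), and -0.065 without control mouse 2. Those of Parp9, Parp14 and Dtx3l were -0.33, -0.43 and -0.30. Parp9 and Dtx3l overlap at their ends (9.09% of the 50-base windows of Parp9 also occurred in Dtx3l), and reads from that stretch cannot be told apart where strand is not used.

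Of the Trim ubiquitin ligases, Trim25, which ubiquitinates RIG-I, measured 144, 180, 177 and 148 CPM across control livers 1 to 4, against 153, 158, 178 and 148 CPM across Smo-KO livers 1 to 4. Control mice 2 and 3 and Smo-KO mouse 3 were high here too, on a smaller scale, and the log2 fold change was -0.028 (SE 0.10). Trim30a and Trim21, a cytosolic antibody receptor, had log2 fold changes of -0.20 and -0.32.

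Of the 5 membrane and secreted products, 3 were highest in control mouse 2 (Rtp4, Lgals3bp and Lgals9), and Ifitm3 and Bst2 were not. Ifitm3, which blocks the fusion of enveloped viruses in endosomes, measured 760, 755, 741 and 722 CPM across control livers 1 to 4, against 761, 663, 763 and 727 CPM across Smo-KO livers 1 to 4. It was almost level over the 8 livers, with a log2 fold change of -0.031 (SE 0.08). Lgals9, or galectin-9, a secreted lectin that binds Tim-3 on T cells, measured 734, 770, 766 and 619 CPM across control livers 1 to 4, against 649, 542, 423 and 567 CPM across Smo-KO livers 1 to 4. Its highest livers were control mice 2 and 3, as for most of the genes. Its groups overlapped only through control mouse 4 and Smo-KO mouse 1, and its lowest value was in Smo-KO mouse 3, the liver in which most of the other genes were highest in that group. The log2 fold change of Lgals9 was -0.41 (SE 0.13), with an unadjusted p of 0.00675 (adjusted p = 0.212 by edgeR). Rtp4, a receptor-transporting protein, had a log2 fold change of -0.49 (SE 0.25) and an unadjusted p of 0.0722.

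Cmpk2 and Rsad2 are neighbours that act together: Cmpk2 makes the nucleotide that viperin, the product of Rsad2, turns into a chain terminator of viral RNA. Cmpk2 measured 17.9, 73.2, 51.5 and 17.9 CPM across control livers 1 to 4, against 21.0, 15.7, 29.6 and 18.5 CPM across Smo-KO livers 1 to 4. Control mice 2 and 3 were above all Smo-KO livers, and control mice 1 and 4 were among them. It had the lowest log2 fold change of the 46 genes, -0.92 (SE 0.39), with an unadjusted p of 0.0356 and an adjusted p of 0.323. With replicate number as a block in the fit it was -0.72 (edgeR, unadjusted p = 0.0543). Without control mouse 2 it was -0.46, with an unadjusted p of 0.198. That of Rsad2 was -0.77 (SE 0.42; unadjusted p = 0.0905), and -0.22 without that mouse. Samd9l, a factor that restricts viral translation, measured 59.8, 142, 117 and 70.5 CPM across control livers 1 to 4, against 76.8, 89.3, 124 and 87.9 CPM across Smo-KO livers 1 to 4. Smo-KO mouse 3 exceeded control mouse 3, and the log2 fold change was -0.046 (SE 0.24). Slfn5, Rnf213 and Helz2 had log2 fold changes of -0.29, -0.37 and -0.24.

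Of the remaining genes, Ifi27, which encodes a mitochondrial and nuclear membrane protein, was the most abundant per length. It measured 448, 448, 385 and 400 CPM across control livers 1 to 4, against 396, 436, 479 and 383 CPM across Smo-KO livers 1 to 4, a log2 fold change of 0.011 (SE 0.10). Sp100 (a nuclear body protein), Phf11d, Xaf1 and Ifi44 had log2 fold changes of -0.32, -0.33, -0.29 and -0.61, and that of Ifi35 was closer to 0. Ifi204, a DNA sensor that shared 30.2% of its 50-base windows with other genes, was the remaining gene above 0. Its values were 16.2 to 31.8 CPM in control and 16.4 to 33.2 CPM in Smo-KO livers.

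The pathway upstream of the 46 genes was also examined. Of 10 interferon genes (Ifna1, Ifna2, Ifna4, Ifna5, Ifnb1, Ifne, Ifnk, Ifng, Ifnl2 and Ifnl3), 0 had enough reads to be tested, and together they reached at most 1.22 CPM in any liver. Ifnb1 measured 0, 0.524, 0.199 and 0.0989 CPM across control livers 1 to 4, against 0, 0, 0.488 and 0 CPM across Smo-KO livers 1 to 4. Its values are too close to that of 3 reads to compare livers. Of 9 receptor and kinase genes, 0 reached an unadjusted p under 0.05, with a median log2 fold change of 0.07. Ifnar1 and Ifnar2, the type I receptor chains, had log2 fold changes of 0.17 (SE 0.09) and 0.043 (SE 0.08).

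Among the transcription factors of the pathway, Irf1 was lower without overlap between groups, with a log2 fold change of -0.49 (SE 0.11; edgeR, adjusted p = 0.132). Stat2 had a log2 fold change of -0.053 (SE 0.14) and Irf9 of -0.19 (SE 0.15). Irf7, which amplifies type I interferon, had one of -0.14 (SE 0.16). Of 5 inhibitors of the pathway, Socs1 (-1.27, SE 0.30) and Ptpn2 (-0.23, SE 0.10) were lower at an unadjusted p under 0.05. Of 12 adaptors and receptors of nucleic acid sensing, Ticam1 (-0.49, SE 0.14) and Tlr9 (-0.85, SE 0.39) were lower at that threshold, and 0 were higher. For comparison, 7.15% of all genes tested were lower and 6.7% were higher.

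A further 44 antiviral genes that were tested, out of 50 listed, gave a count of 10 lower and 0 higher at an unadjusted p under 0.05, with a median log2 fold change of -0.23. Over all genes tested, 7.15% were lower and 6.7% were higher at that threshold. Those with the lowest p were Shisa5 (-0.40, SE 0.11), Samhd1 (-0.42, SE 0.12), Isg20 (-0.57, SE 0.16) and Parp11 (-0.64, SE 0.21). Isg20, a nuclease that degrades viral RNA, was the only 1 of the 44 whose groups did not overlap. Over all genes 4.34% were lower without overlap, so that count is not above the background. Targets of interferon gamma, the interferon made by lymphocytes, stood lower, with a median log2 fold change of -0.73. At an unadjusted p under 0.05, 17 of the 21 tested were lower and 0 were higher. Those with the lowest p were Batf2 (-1.07, SE 0.21), Igtp (-1.11, SE 0.23), Cxcl9 (-1.55, SE 0.32) and Ciita (-0.89, SE 0.19), each with an adjusted p of 0.116.

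In both lists control mice 2 and 3, and Smo-KO mouse 3, were the highest of their groups. The median log2 difference from the control mean over the 44 further antiviral genes was -0.32, 0.27, 0.25 and -0.18 in control mice 1 to 4 and -0.13, -0.36, 0.054 and -0.20 in Smo-KO mice 1 to 4. The median log2 difference from the control mean over the interferon gamma targets was -0.52, 0.25, 0.28 and -0.08 in control mice 1 to 4. In Smo-KO mice 1 to 4 it was -0.71, -0.83, -0.19 and -0.71. Unlike the 46 antiviral genes, 3 of the 4 Smo-KO livers lay below the lowest control liver. Whether the lists differed in their response was not tested.

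The cellular makeup of each sample bears on these values, because in whole liver fewer cells of a type and less RNA per cell cannot be told apart. Hepatocyte markers were abundant in every liver (Alb was between 14262 and 17680 CPM), and 0 of the 6 reached an unadjusted p under 0.05. Their median log2 difference from the control mean was 0.25, -0.10, -0.12 and 0.027 in control mice 1 to 4, the reverse of the antiviral genes in that mice 2 and 3 were the lowest. Among Smo-KO livers it ranged from 0.030 to 0.15. Macrophage and Kupffer cell markers were between 672 and 1041 CPM in sum, with Clec4f the largest part of it and 0 of 7 at that threshold. The sum was lowest in control mouse 2, the liver in which the antiviral genes were highest. Among control livers it was highest in control mouse 3 (981 CPM), where the antiviral genes were high as well. Of the T lymphocyte markers 6 of 7 were lower at that threshold, all but Themis, which was higher. Their median log2 difference from the control mean was 0.00, -0.06, -0.05 and 0.24 in control mice 1 to 4 and -0.86, -1.10, -0.42 and -0.47 in Smo-KO mice 1 to 4. Cd8a, for example, was between 9.44 and 11.0 CPM in control livers and between 4.47 and 7.04 CPM in Smo-KO livers, whereas Themis had a log2 fold change of 0.96 (SE 0.17). Of 8 natural killer and cytotoxic markers 5 were tested, and 4 of these were lower at an unadjusted p under 0.05. The background for these marker counts was 7.15% of all genes lower and 6.7% higher. In the T lymphocyte markers, control mice 2 and 3 did not stand out.

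They did so in the 4 monocyte markers, which summed to 23.8, 50.7, 43.7 and 36.6 CPM across control livers 1 to 4, against 31.8, 37.0, 51.6 and 37.8 CPM across Smo-KO livers 1 to 4. Most of this sum was Ccr2, and none of the 4 was at 0 in any liver. Control mouse 2 was the highest control liver and Smo-KO mouse 3 the highest Smo-KO liver, as for the antiviral genes, and 0 of the 4 differed between groups at an unadjusted p under 0.05. Of 4 neutrophil markers, 2 were tested (S100a8 and S100a9), and 0 of these reached an unadjusted p under 0.05. The 4 summed to 6.92, 10.3, 15.01 and 8.31 CPM across control livers 1 to 4, against 8.56, 7.96, 10.6 and 11.0 CPM across Smo-KO livers 1 to 4. The highest control livers were mice 2 and 3 here as well, while Ly6g, a defining neutrophil marker, had 0 reads in every liver. Of 5 plasmacytoid dendritic cell markers 4 were tested, of which 3 had a log2 fold change above 0 and 1 below it. Siglech had a log2 fold change of 0.29 (SE 0.22), and Ly6d was higher without overlap (0.75, SE 0.28). The marker below 0 was Bst2 (-0.035, SE 0.08), the most abundant of the 5, which is also among the antiviral genes analysed here. B lymphocyte, conventional dendritic cell and cholangiocyte markers had 0 genes at an unadjusted p under 0.05, and sinusoidal endothelial and stellate cell markers had 1 lower gene each, Pecam1 and Col1a1. The 5 sinusoidal endothelial markers summed to 142, 137, 162 and 164 CPM across control livers 1 to 4. Across Smo-KO livers 1 to 4 the sums were 173, 82.6, 110 and 142 CPM. Smo-KO mouse 2 was the lowest liver in this sum and in that of the stellate cell markers (246 CPM). The part of these cells in the antiviral gene values was not tested.

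**Figure D5:**
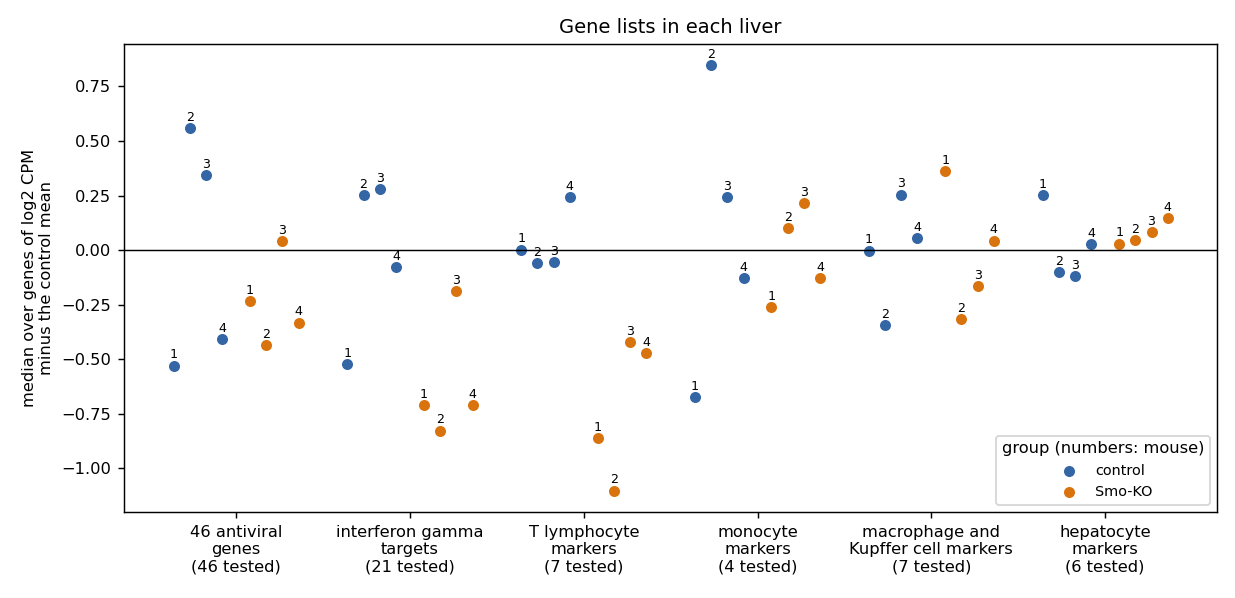
Median over the genes tested of log2 CPM minus the control mean, for 6 gene lists in each liver (blue control, orange Smo-KO; numbers are mice). Control mice 2 and 3 and Smo-KO mouse 3 are the highest of their groups for the 46 antiviral genes, the interferon gamma targets and the monocyte markers, whereas the T lymphocyte markers separate the groups and the hepatocyte markers lie between -0.12 and 0.25.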

How the data were processed

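For each liver the authors deposited whole-number read counts per gene symbol, without normalization. The submitters' processing notes name fastp, STAR 2.7.5, featureCounts 2.0.1 and genome build GRCm38. The deposited count lists have the layout of htseq-count output, so which counter made them is uncertain, and the annotation and strand setting are not given in the sources used here. Reads on no gene (7.56% to 9.68%) and on more than 1 gene (2.45% to 2.61%) entered neither library sizes nor tests.

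The 8 libraries were filtered (filterByExpr), scaled by TMM and fitted by group alone using edgeR 4.0.16 under R 4.3.3 (estimateDisp, then glmQLFit, then glmQLFTest), with Benjamini-Hochberg adjustment over 12977 genes. SE are those implied by the F statistic. CPM are TMM-scaled; a prior count of 2 entered log2 CPM. DESeq2 1.42.0 served as an alternative test. Lengths are unions of GENCODE M21 exons. The statistical procedure was tested on simulated counts. Pairs of libraries within a group differed by a chi-square of 8.14 to 18.4 per degree of freedom, where copies give about 1. The labels do not say how the livers were batched, and each library is 1 mouse.

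The 46 genes, the other gene lists and the tests were chosen with earlier results of these data known. Values in every mouse are given for genes at an unadjusted p under 0.05 and for the most abundant gene per length of each family, and up to 4 genes with the lowest p are named per pathway list; a result on the regulators of the pathway is not reported here. Single genes named beside that rule (Ifnb1, Ifnar1, Ifnar2, Stat2, Irf9, Irf7, Rtp4 and the cell markers) were picked for their role or after their values were seen. Figures were drawn with matplotlib 3.10.9.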

Additional observations from a re-analysis of the deposited data

Results flagged for a closer look

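Of 160 groups of 4 livers examined (single antiviral genes, Smo, sums over gene lists and library totals), 9 held a liver far from the other 3 by Dixon's criterion, and chance alone gives about 8, or 1 in 20. Of these 9, 6 concerned high values in Smo-KO mouse 3. It had 82.4 CPM of Ifit1, against 33.0 to 38.9 CPM in the other Smo-KO livers. Its sum over the Ifit genes was 150 CPM (others 65.2 to 79.1), over the Trim genes 247 CPM (205 to 210), and over the nuclear factors and others 775 CPM (633 to 651). The interferon gamma targets summed to 2815 CPM in that liver (1772 to 1835) and the conventional dendritic cell markers to 62.4 CPM (48.1 to 50.1). The same liver had the fewest reads on genes, 8203299 (9367795 to 9543675). In control mouse 2, the inhibitors of interferon signaling summed to 186 CPM (157 to 159 in the other control livers) and the B lymphocyte markers to 7.34 CPM (9.19 to 9.30). The cause of these values was not tested.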

How the results depend on the processing

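Genes with an adjusted p under 0.05 numbered 0 in the analysis as reported, 163 with DESeq2's Wald test, 61 without a filter on low counts, 8 with a replicate block and 0 to 78 on leaving out single mice (78 without Smo-KO mouse 1, 5 without control mouse 1, 4 without Smo-KO mouse 3). The 46 antiviral genes held 0 of them in all 15 settings. Antiviral genes lower at an unadjusted p under 0.05 numbered 5 as reported, 3 with DESeq2, 14 without a filter, 7 with the replicate block and 1 to 25 with a mouse left out. The share of all genes lower at that threshold was counted only for the analysis as reported (7.15%). With DESeq2 the antiviral genes called were Lgals9, Znfx1 and Parp14, and Isg15, Oasl1 and Cmpk2 lost the call. With the replicate block Cmpk2 lost it, at -0.72, and Parp9, Parp14 and Dtx3l gained it. Genes higher at that threshold numbered 0 to 1 (Oas2, without control mouse 2), and genes lower without overlap 0 to 2. The median log2 fold change of the 46 ran from -0.44 to -0.11 with a mouse left out, the highest without control mouse 2, and 34 of the 46 were below 0 in all settings. The sign of 10 genes turned in at least 1 setting. With a mouse left out, Mx1 ran from -0.60 to 0.089, Trim25 from -0.087 to 0.028, Ifitm3 from -0.054 to 0.012, Samd9l from -0.22 to 0.20 and Ifi27 from -0.053 to 0.056, and Samd9l was 0.019 with the replicate block. Without control mouse 2, Ifit3b was 0.058, Oas1b 0.084, Usp18 0.074, Trim30a 0.00915 and Ifi35 0.029. RLE size factors, library totals and a minimum of 10 counts in every liver left all these counts within 1.5 times. With library totals, a check added after the data were seen, control mouse 2 was highest in 39 of the 46 (40 as reported) and Smo-KO mouse 3 highest of its group in 35 (39). With the longest transcript as length, Mx2 and Helz2 replaced Mx1 and Samd9l as the most abundant of their families. Replicate numbers were not taken to pair the mice, because no pairing is stated. In their deviations from the group means, livers of the same number correlated at 0.104, 0.187, 0.0611 and 0.113, all positive. Control mice 2, 3 and 4 matched the Smo-KO liver of their own number best, and control mouse 1 matched Smo-KO mouse 4. Whether livers of the same number shared a batch was not tested, and the fit with a replicate block is given above.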
